A study of Mus musculus with 12 samples.

Results

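The regions described here are exonic crosslink regions from immunoprecipitation of the RNA binding protein LARP1 that were called in Rnmt cKO naive CD4 T cells and not in control cells. They stand as the peak caller gave them, before the study's own later selection against input and IgG reads, so which of them exceeded IgG was not examined. They were chosen by their place in 2 deposited lists of LARP1 regions: a region of the Rnmt cKO list counted as a member if it overlapped no region of the control list by 1 nt or more on the same strand and overlapped an exon of an annotated transcript on that strand. Regions on chromosome Y were left out. There were 914 such regions among the 1364 exonic regions of the Rnmt cKO list and the 5556 regions of both lists. Because the absence of a control overlap chose them, that absence is a description and is not a result.

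LARP1 is a La-related protein that binds the 5' cap together with the terminal oligopyrimidine (TOP) motif, a C followed by a run of pyrimidines at the very start of the mRNAs that encode the translation machinery. Through its La module it also contacts RNA away from the cap and associates with the poly(A) tail and with poly(A) binding protein. RNMT methylates the guanosine cap that LARP1 recognises, and in resting T cells the TOP mRNAs are held as a large store of poorly translated message.

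The series holds 12 libraries, of which 6 form the main experiment. LARP1 was immunoprecipitated by eCLIP, in which ultraviolet light fixes a protein to the RNA it touches and cDNAs that stop at the crosslinked base are sequenced. The control cells were Rnmt fl/fl CD4cre - and the Rnmt cKO cells were Rnmt fl/fl CD4cre +, so that both carried loxP sites in both Rnmt alleles and only the second carried the Cre transgene, which the Cd4 promoter drives in T lineage cells. All cells were naive CD4 T cells from lymph nodes of female mice, of an age that was not given, exposed to 400 mJ of 254 nm light and precipitated with the same rabbit antibody to LARP1 (abcam ab86359). Each genotype gave 1 library and 1 list, so there is no replicate check, no difference between the genotypes could be tested, and differences between genotypes cannot be told apart from differences between libraries.

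The depth of the libraries is not known from the lists. A region that was not called in control cells was therefore not called at that depth, which is not the same as not bound. The deposited score of a region sums PureCLIP scores over its crosslink sites, is fitted to its own library, and is used here only to rank regions within the Rnmt cKO list. Percentages carry 95% Wilson confidence intervals, which cover counting error over regions only, and regions of the same gene are not independent of each other. Rnmt itself had 0 exonic regions in both lists, so the lists give no check of the deletion. Of the marker genes of other cells, the 2 CD8 T cell, 6 B cell and 4 antigen-presenting cell markers had 0 exonic regions in both lists, Hbb-bs of erythroid cells had 1 in control, and of 7 T cell markers Cd3d, Cd4 and Cd247 had regions in both lists.

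The sequences of 16 members are given as examples that the results below refer to, and were chosen after their values were seen. They were read from GENCODE M21 transcripts (GRCm38) 5' to 3' on the RNA strand, with T for U. Capitals mark the called region and lower case its flanks. The first set shows regions in 3'UTRs, and in 1 non-coding antisense transcript, that lay in long runs of T. It was picked for these runs, which most 3'UTR members lacked: 227 of 363 had no TTTTT in the 15 nt window. Tmsb10, the highest-scoring of those without, closes the set.

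Kmt2d, 3'UTR, chr15:98832480-98832484, minus strand: tttcttttttttTTTTTtaaagctgcttcc
Myh9, 3'UTR, chr15:77760799-77760802, minus strand: ttttcttttttttTTTTttaaaggaaaacc
Mllt6, 3'UTR, chr11:97683923-97683926, plus strand: cctcaccttttttTTTTttaaagacaaggt
Btg1, 3'UTR, chr10:96618816-96618819, plus strand: tctttttttttttTTTTaatttagtgacag
Foxp1, 3'UTR, chr6:98928926-98928929, minus strand: ttcttttttttctTTTTcatagcacccacc
Rbm25, 3'UTR, chr12:83682974-83682976, plus strand: gtcttttttttttTTTtaaacatttgagag
2010016I18Rik, non-coding exon, chr3:106483441-106483444, minus strand: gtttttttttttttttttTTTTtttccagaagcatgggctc
Tmsb10, 3'UTR, chr6:72957570-72957577, minus strand: caccccgccccATCATCTCcaagaccccct

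In all of these except Tmsb10 the region lay at or near the 3' end of a run of T. The second set holds coding sequence (CDS) regions of ribosomal protein mRNAs, which are of mixed composition and from 3 to 25 nt wide. The second Rpl13a sequence and that of Rps13 run across an exon junction and come from the spliced transcript.

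Rpl13a, CDS, chr7:45127511-45127535, minus strand: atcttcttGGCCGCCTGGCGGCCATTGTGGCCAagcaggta
Rpl13a, CDS, chr7:45126230-45126236, minus strand: taccagaaagtTTGCTTAcctggggcgtct
Rps27a, CDS, chr11:29546724-29546726, minus strand: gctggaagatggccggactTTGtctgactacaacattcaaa
Rps13, CDS, chr7:116333930-116333939, minus strand: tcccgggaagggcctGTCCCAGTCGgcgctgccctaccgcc

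The third set holds 5'UTR regions. That of Rps27 ran across a start codon annotated in 1 transcript variant, which set its class. In other transcripts it may be internal coding sequence. That of Pabpc1 lay 179 nt from the nearest annotated transcription start site (TSS). The TSS nearest to the regions of AB124611 and Psma7 lay 9 and 2 nt downstream of them, but both regions were inside the 5'UTR of the transcript used.

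Rps27, 5'UTR and start codon, chr3:90213203-90213213, minus strand: attcctactTTATGGACGTGaaatgcccag
Pabpc1, 5'UTR, chr15:36608787-36608794, minus strand: ttcttcctcttTTATAAAAtaacccggtga
AB124611, 5'UTR, chr9:21526192-21526195, plus strand: cactcgcttctccTTTCtccgctgtggtct
Psma7, 5'UTR, chr2:180042408-180042412, minus strand: gtgagtgtgcgcTTTTGagcggcggcggcc

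Of all 2367 Rnmt cKO regions 64.6% had no control overlap, and of the exonic ones 67.0%. In the other direction 377 of 826 exonic control regions, 45.6%, had no Rnmt cKO overlap. The lists also differed as wholes: 826 of 3189 control regions were exonic, against 1364 of 2367 Rnmt cKO regions. Counts of members and of regions called only in control carry this difference, whose cause was not tested. The 914 members comprised 1503 crosslink sites and covered 2322 nt. Their median width was 1 nt and their widest region 33 nt, and 565 of them (61.8%, 58.6 to 64.9%) were a single crosslink site. Among the 450 exonic regions of the same list that were shared with control, 26.4% (22.6 to 30.7%) were a single site. Among the 377 exonic regions called only in control 91.5% (88.3 to 93.9%) were. The lists differed in this as wholes: 54.7% of all Rnmt cKO and 82.6% of all control regions were a single site. A wider region has more bases that can overlap a control region, so width, sites and summed score are not independent of the selection. The median width of shared regions was 3 nt.

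Most members lay in the body of mRNAs and not at the cap. The largest class was the 3'UTR, with 363 members (39.7%, 36.6 to 42.9%), followed by CDS with 284 (31.1%, 28.2 to 34.1%), exons of non-coding transcripts with 151 (16.5%, 14.3 to 19.1%) and 5'UTRs with 116 (12.7%, 10.7 to 15.0%). Among the 374 members that scored above the median of their list, CDS was the largest class instead, with 38.2% against 29.9% in 3'UTRs. Shared regions of the same list had a different order, with 52.4% (47.8 to 57.0%) in 5'UTRs and 10.7% (8.14 to 13.9%) in 3'UTRs. The regions called only in control were spread more like the members, with 36.9% (32.2 to 41.8%) in 3'UTRs and 17.8% (14.2 to 21.95%) in 5'UTRs, but fewer of them lay in CDS (19.1%, 15.4 to 23.4%). Where a region overlapped several classes over different transcripts, which was so for 308 members, the 5'UTR was taken before CDS, CDS before 3'UTR and 3'UTR before non-coding exons.

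**Figure D1:**
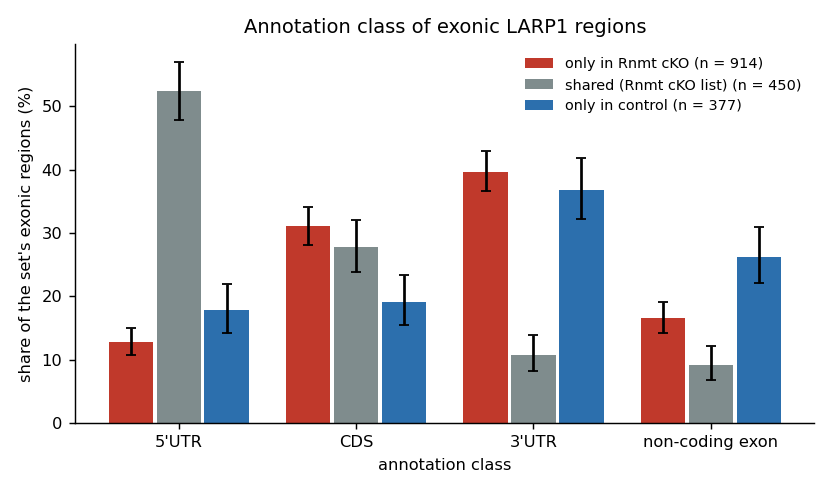
Share of exonic LARP1 regions (%) in each annotation class, for regions called only in Rnmt cKO (n = 914), Rnmt cKO regions shared with control (n = 450) and regions called only in control (n = 377). Bars are shares and lines 95% Wilson intervals; shared regions stood highest in 5'UTRs, at 52.4%, and regions called only in Rnmt cKO in 3'UTRs, at 39.7%.

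Seen by class, the share of Rnmt cKO regions without a control overlap was 33.0% in 5'UTRs, 69.4% in CDS, 88.3% in 3'UTRs and 78.6% in non-coding exons. These shares restate the selection for each class and were not tested. Distance to transcript starts followed the same order. Within 50 nt of a TSS lay 12.1% of members (10.2 to 14.4%) and 51.8% of the shared regions (47.2 to 56.4%). Even among 5'UTR regions, 65.5% of members (56.5 to 73.5%) against 87.3% of shared regions (82.4 to 90.9%) lay that close. For regions called only in control the shares were 18.8% (15.2 to 23.1%) of all and 80.6% (69.6 to 88.3%) of those in 5'UTRs. Both intervals overlapped or lay near those of members.

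The scores of members, which sum over sites and so are not independent of the selection, were mostly low within their list. The lowest was 0.00975, the median 5.80 and the highest 302, against a median of 56.7 and a highest score of 1982 for the shared exonic regions. By class, the median was 8.28 in CDS, 7.15 in 5'UTRs, 6.12 in non-coding exons and 4.09 in 3'UTRs. No member was among the 100 highest-scoring regions of the whole Rnmt cKO list, 9 were among the highest 200 and 86 among the highest 500. Of these 86, 48 were in CDS, 14 in 3'UTRs, 14 in 5'UTRs and 10 in non-coding exons. Members made up 67.0% of the exonic regions of that list and 10.7% of their summed score.

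**Figure D2:**
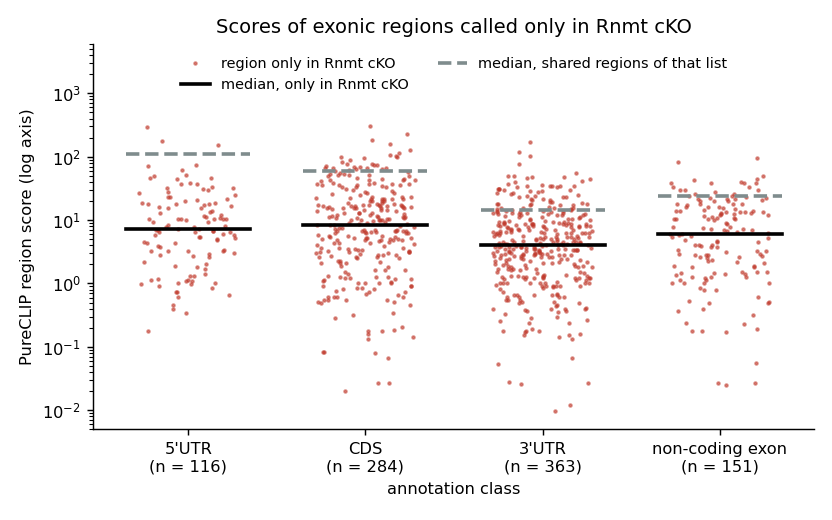
PureCLIP region scores (log axis) of the 914 exonic regions called only in Rnmt cKO, by annotation class. Points are regions, black lines their medians (7.15, 8.28, 4.09 and 6.12 from left to right) and dashed grey lines the medians of the shared regions of the same list, which were higher in each class.

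At the edge of the selection, members and shared regions could differ by a single base. The members nearest to a control region without overlap lay directly beside one. They were in the CDS of Rpl18 (chr7:45720451-45720452, plus strand, score 24.4), the 5'UTR of Fxr1, an RNA binding protein of the fragile X family (chr3:34020100-34020102, plus strand, score 8.24), and the 5'UTR of the sialomucin gene Cd164 (chr10:41519505-41519507, plus strand, score 8.14). Just outside the selection, 269 of the 450 shared regions overlapped a control region by exactly 1 nt, the highest-scoring being in the 5'UTRs of Rack1 (score 1054) and Rpl10a (score 911). Of these 269 regions, 150 were wider than a single base in the Rnmt cKO list. Only 22 members (2.41%, 1.59 to 3.62%) had a control region within 30 nt, and 265 (29.0%, 26.1 to 32.0%) within 1000 nt.

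The members fell in 568 genes, of which 393 held a single one. Some of these genes also had exonic control regions elsewhere. Members in genes with such a region numbered 455 (49.8%, 46.5 to 53.0%), and 459 were in genes with none. Counted as genes, 351 of the 740 genes with an exonic Rnmt cKO region, 47.4%, had no exonic control region, and each of these holds members by definition. The split differed by class: 222 of 284 CDS members (78.2%, 73.0 to 82.6%) lay in genes with an exonic control region, against 137 of 363 in 3'UTRs (37.7%, 32.9 to 42.8%), 57 of 151 in non-coding exons (37.7%, 30.4 to 45.7%) and 39 of 116 in 5'UTRs (33.6%, 25.7 to 42.6%).

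Ribosomal protein mRNAs, the classical TOP mRNAs, held 168 members (18.4%, 16.0 to 21.02%) in 71 of 87 annotated genes. Among the 374 members above the median score of the list their share was 33.2%. Nearly all were in the coding sequence. CDS accounted for 155 of the 168 (92.3%, 87.2 to 95.4%) in 67 genes, against 7 in 5'UTRs, 4 in non-coding exons and 2 in 3'UTRs. Genes of the large subunit held 103, Rps genes of the small subunit 64 and Fau, whose protein includes a small subunit protein, 1. From 1 to 7 members were found in a gene, with 22 genes holding 1, 23 holding 2 and 13 holding 3. A further 10 ribosomal protein genes, among them Rpl27, Rpl38, Rps10 and Rpsa, had exonic regions in Rnmt cKO that were all shared with control.

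In Rnmt cKO cells the same mRNAs had their highest-scoring regions at the 5' end. Of the 71 genes with a member, 65 also had a shared region in the 5'UTR, and in 0 of the 65 did a member score above that region. The median score of ribosomal protein regions in this list was 965 for the 85 shared 5'UTR regions, 72.2 for the 96 shared CDS regions and 17.4 for the 155 CDS members. As a share of their Rnmt cKO regions, ribosomal protein genes held fewer members than exons at large, 47.7% (42.6 to 52.9%) against 67.0%. This was so in both main classes. In 5'UTRs 7 of 92 regions were members (7.61%, 3.73 to 14.9%), against 109 of 260 in all other genes (41.9%, 36.1 to 48.0%), and in CDS 155 of 251 (61.8%, 55.6 to 67.5%) against 129 of 158 (81.6%, 74.9 to 86.9%). Reads of these genes can be placed on near-identical processed pseudogenes, and how the mapping split them was not tested. In all, 14 members lay in exons of pseudogenes.

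Rpl13a, which encodes a protein of the large subunit, showed the pattern in a single transcript. It had 5 members, all in CDS, with scores of 302, 97.1, 89.0, 186 and 62.8 from 5' to 3'. The first began 48 nt into the coding sequence of 612 nt, and first and last lay 417 nt apart. The gene also had shared CDS regions of 171, 69.4 and 9.33, and a shared 5'UTR region of 1525. The nearest control region to the highest member was 236 nt away. Rpl4 had 7 members, 6 in CDS and 1 just past the stop codon, with scores from 0.207 to 18.7, and 6 shared regions, of which the 5'UTR region scored 1547. Rpl12 had 6, of which the highest, 174, was in the 5'UTR 37 nt from the nearest annotated TSS. Rps27 had a single member with a score of 293, the region across a start codon annotated in 1 variant. The stop codon of that variant lay 160 nt past the region's first base, and the region may be internal coding sequence in other transcripts. Rps27a, whose protein is made as a fusion with ubiquitin, had 2 members, the higher at 129. Rps13 also had 2, the higher at 156 and 32 nt into the coding sequence, and the highest of 4 members in the CDS of Rpl17 scored 229. Rpl21, with 4 members from 6.14 to 42.9, and Rps29, with 3 up to 75.1, were the 2 genes of the 71 without any exonic control region.

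**Figure D3:**
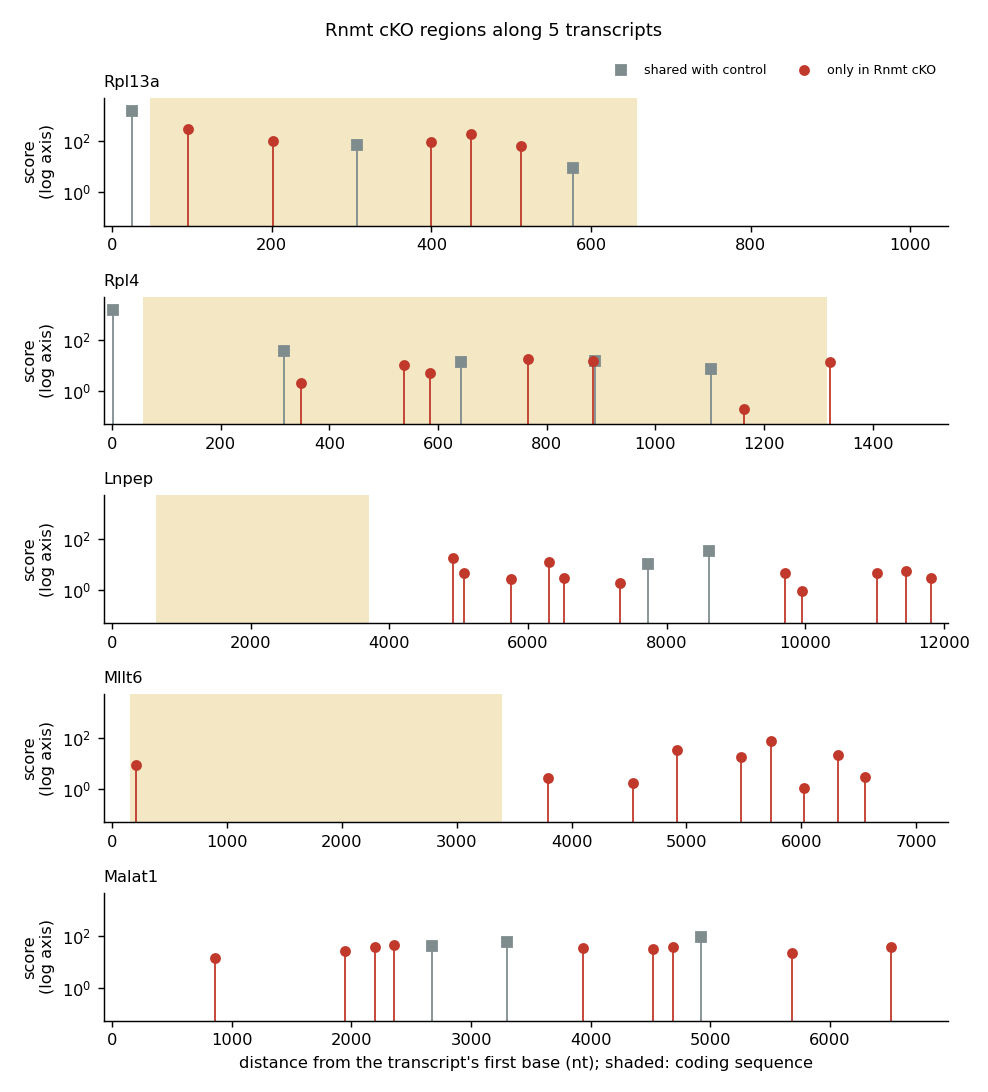
Rnmt cKO regions along 1 transcript each of Rpl13a, Rpl4, Lnpep, Mllt6 and Malat1, with the distance of the region's first base from the transcript start (nt) and the region score (log axis). Circles are regions called only in Rnmt cKO, squares regions shared with control and shading the coding sequence; 1 shared region each of Rpl13a and Rpl4 that begins outside these exons is not drawn. In Rpl13a and Rpl4 the circles fall in or at the coding sequence below a shared 5'UTR region above 1500, in Lnpep and Mllt6 they fall mainly in the 3'UTR.

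Other TOP mRNAs gave similar counts. In a list of 26 such genes, 35 of 72 exonic Rnmt cKO regions were members (48.6%, 37.4 to 59.9%), again below the 67.0% of all exons, and 25 of the 35 lay in CDS. No allowance was made for class here. Each of the 13 genes concerned also had an exonic control region. Eef1a1, the elongation factor that brings aminoacyl-tRNA to the ribosome, had 6 members with scores between 1.41 and 77.2, of which 5 were in CDS. Pabpc1, the cytoplasmic poly(A) binding protein, had 5, of which the highest at 151 lay in the 5'UTR 174 nt from a control region. Rack1, a scaffold protein of the small subunit, had 6 in CDS, from 2.24 to 37.2, beside its shared 5'UTR region.

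Members in CDS outside ribosomal protein genes numbered 129. Counted by region, the median CDS of their transcripts was 1911 nt, and that of all CDS members 732 nt. Outside ribosomal protein genes it was 864 nt for 29 shared regions and 1576.5 nt for 58 regions called only in control. Counted by gene, 1 transcript of each of 21951 protein-coding genes gave a median of 1158 nt. No allowance was made for CDS length or for genes with several members. Over all CDS members the median distance from the start codon was 320 nt, and for shared CDS regions 209 nt. Within 100 nt of the start codon lay 17.3% of members (13.3 to 22.1%) and 30.4% of shared regions (23.02 to 38.9%), and 9.72% of the 72 CDS regions called only in control (4.79 to 18.7%).

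The 3'UTR members were in other genes. Only 2 of the 363 were in ribosomal protein mRNAs (0.551%, 0.151 to 1.99%). They spread over 254 genes whose 3'UTRs had a median length of 2620 nt, with quartiles of 1529 and 4246 nt, against 769 nt for 1 transcript of each of 21951 protein-coding genes. Long 3'UTRs were shared by the other sets: counted by region, the median 3'UTR of the transcript was 3029 nt for members, 2707.5 nt for shared regions and 2912 nt for regions called only in control. A longer 3'UTR offers more bases in which a region can be called, and no allowance was made for that. With each 3'UTR cut into 3 equal parts, 150 members lay in the part next to the stop codon, 121 in the middle and 92 in the part next to the transcript end. The median member lay 1121 nt past the stop codon and 1492 nt before the transcript end, and 16 were within 100 nt of the stop codon and 8 within 100 nt of the end. The polyadenylation signal AATAAA was in the 15 nt window of 2 of them, or 0.551%, against 1.02% of all windows of the same 3'UTRs.

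A few genes held many. Lnpep, which encodes the insulin-regulated aminopeptidase, had the most of any gene, with 11 members in its 3'UTR of 8339 nt. They were spread over 6894 nt, with a median step of 485 nt and scores from 0.912 to 17.9, and 2 shared regions of 10.2 and 34.5 lay among them. Mllt6, a chromatin protein known as a fusion partner of MLL in leukaemia, had 8 in the 3'UTR and 1 in CDS, the highest at 76.7, and no exonic control region. Fnbp1, an F-BAR membrane-shaping protein, had 7 in the 3'UTR and 1 in CDS, from 0.175 to 14.6. The RNA helicase genes Ddx17 and Ddx5 had 6 and 4 in the 3'UTR, with highest scores of 33.3 and 31.3, and Tet3, an enzyme that oxidises methylated cytosine in DNA, had 5, up to 19.6. The highest 3'UTR member of all, in the histone methyltransferase Kmt2d, scored 173 and was the sixth of all members, and in the non-muscle myosin Myh9 a pair of neighbouring T-rich regions scored 120 and 55.0. Tmsb10, a small actin-binding protein, had a member of 102 only 41 nt past its stop codon.

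T-rich sequence set the 3'UTR members apart from the 3'UTRs they lay in. The run TTTTT was in the 15 nt window around the first base of 136 of 363 members (37.5%, 32.6 to 42.6%), whereas 4.46% of all 15 nt windows of the same 3'UTRs held it. The run was searched on the RNA strand only, and it also counts as a run of C or T. Runs of at least 8 T were in 62 of the windows (17.1%, 13.6 to 21.3%) and runs of at least 10 T in 40 (11.02%, 8.20 to 14.7%). The 136 were spread over 111 genes. Counting each gene once by its highest 3'UTR member gave 98 of 254 (38.6%, 32.8 to 44.7%).

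The same run was less frequent in the other sets of 3'UTR regions, and the number of crosslink sites moved with it. It was in 8 of 48 shared regions (16.7%, 8.70 to 29.6%) and 23 of 139 regions called only in control (16.5%, 11.3 to 23.6%). Members of at least 2 crosslink sites held it in 85 of 134 cases (63.4%, 55.0 to 71.1%) and members of a single site in 51 of 229 (22.3%, 17.4 to 28.1%). Of the regions called only in control, 133 of 139 were a single site, and 21 of these held the run (15.8%, 10.6 to 22.9%), so that among single sites the intervals of both sets overlapped. None of the 26 shared single sites held it. Regions of at least 2 sites were few in the other sets, with the run in 8 of 22 shared regions and 2 of 6 called only in control. Members with the run had a median score of 6.28, against 3.40 for those without, and 11 of the 14 3'UTR members in the highest 500 regions of the list held it. It was found in 13 of 114 5'UTR members with a full window (11.4%, 6.79 to 18.5%), 11 of 284 in CDS (3.87%, 2.18 to 6.80%) and 27 of 144 in non-coding exons (18.8%, 13.2 to 25.9%), against 2.07%, 0.381% and 2.62% of windows of the same exons.

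**Figure D4:**
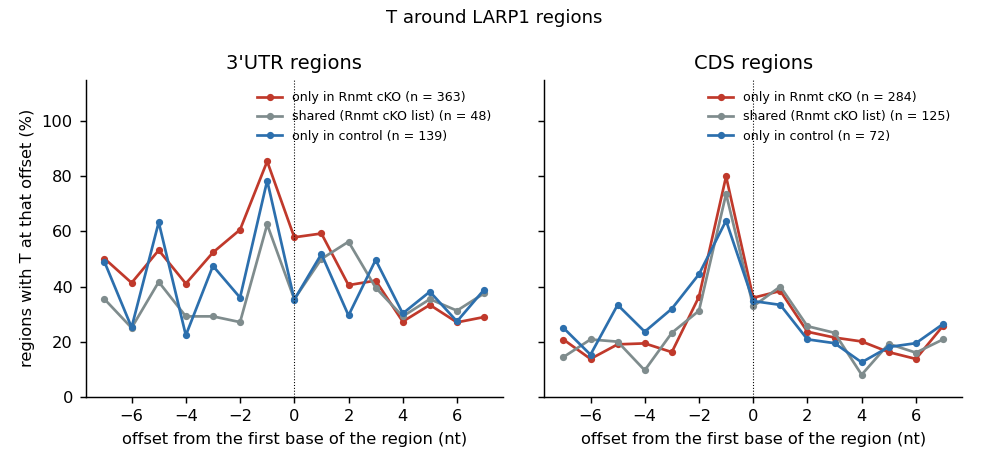
Share of regions with T (%) at each offset (nt) from the first base of the region, for 3'UTR regions (left) and CDS regions (right), in regions called only in Rnmt cKO (red), shared with control (grey) and called only in control (blue). The base just before the region was T in 85.4% of 3'UTR and 79.9% of CDS regions called only in Rnmt cKO, and from 2 to 4 nt upstream the red line stands above the others in 3'UTRs and not in CDS.

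A T next to the region was common to all classes. It stood at the base just before the region in 78.3% of members, and at the first base in 424 of 914 (46.4%, 43.2 to 49.6%), against 25.2% of all positions of the same exons. Shared regions had T at the first base in 48.4% (43.9 to 53.1%) and regions called only in control in 38.2% (33.4 to 43.2%). These shares moved with the number of crosslink sites. At a single site, T was at the first base in 30.8% of members (27.1 to 34.7%), 19.3% of shared regions (13.2 to 27.3%) and 34.8% of regions called only in control (29.9 to 39.95%). With at least 2 sites it was there in 71.6% (66.7 to 76.1%), 58.9% (53.5 to 64.1%) and 24 of 32 (57.9 to 86.7%). The base before the region was also T in 63.7% of shared regions and 70.1% of regions called only in control, and whether the deposited starts are shifted by 1 nt from the crosslinked base was not settled. Windows, first bases and capitals all follow the starts as deposited. Adenosine runs were rare: AAAAA was in 17 of 905 full windows (1.88%, 1.18 to 2.99%), against 2.08% of all windows.

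The 5'UTR members were a minority of 116, in 111 genes, and were less pyrimidine-rich than shared 5'UTR regions. A run of at least 5 C or T was in 72 of 114 windows (63.2%, 54.0 to 71.4%), against 32.2% of windows of the same 5'UTRs and 191 of 223 windows of shared 5'UTR regions (85.7%, 80.4 to 89.6%). C and T made up 63.9% of the bases of the members' windows on average, and 77.1% in the shared regions. The 5'UTR regions called only in control lay between members and shared regions. They had such a run in 48 of 64 windows (63.2 to 83.99%) and a mean of 67.7% C and T. That interval overlapped those of members and of shared regions, so a lower share than in shared regions was not particular to members. The median distance of the 5'UTR members to the nearest annotated TSS, of any transcript, was 5.5 nt downstream. Its quartiles were 3.5 nt upstream and 52.8 nt downstream. After Rps27, Rpl12 and Pabpc1 the highest were those of Cd3d (74.7), a chain of the T cell receptor complex, and Eef1a1 (70.8). The highest in genes without an exonic control region was that of AB124611 (51.0). Psma7 (39.0) encodes a proteasome subunit, Hist1h3c (30.7) and Hist1h3f (18.2) histone H3, and Hnrnpa1 (24.8) an RNA binding protein of splicing whose mRNA is itself a TOP mRNA. The histone H3 genes are near-identical copies, so which of them the reads came from is uncertain. Larp1 itself had a single exonic region, a member with a score of 4.72.

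Non-coding exons held 151 members, of which 86 (57.0%, 49.0 to 64.6%) lay in transcripts annotated as retained introns, that is, in variants that keep an intron. The share was similar for non-coding exon regions called only in control, 52 of 99 (52.5%, 42.8 to 62.1%). Among shared ones it was 10 of 41 (24.4%, 13.8 to 39.3%). With transcripts tagged basic alone, which leave out most such variants, non-coding exons held 6.04% of members. The 86 were in 67 genes, with a median score of 5.29, and 64 of them were a single site. The highest was in Rps25 (94.8), a single base 41 nt from a control region. The U1 protein gene Snrnp70 had 4, from 0.174 to 21.8, and Ogt, the enzyme that adds O-GlcNAc to proteins, had 4 in such exons and 1 each in CDS and 3'UTR, without any exonic control region. H2-K1 (49.9), H2-Q4 (25.4) and H2-Q7 (16.0), MHC class I genes that are close copies of each other, also had members there. Among long non-coding RNAs, the nuclear RNA Malat1 had 9, a single site each, with scores between 13.6 and 44.6, along 5641 nt of its 6983 nt and interspersed with 3 shared regions of 42.5 to 97.1. The antisense gene 2010016I18Rik had 6, the highest at 83.9. Gm42418, a transcript that overlaps ribosomal RNA sequence, had 2, and reads of ribosomal RNA origin cannot be told apart there.

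Gene lists relevant to T cells had few regions, and their shares were read against the 67.0% of all exonic Rnmt cKO regions. That share was 33.0% in all 5'UTR and 88.3% in all 3'UTR regions, and no allowance was made for class. Genes of naive T cell homing and quiescence had 10 members among 12 regions (83.3%, 55.2 to 95.3%), 9 of them in 3'UTRs. They included Btg1, an antiproliferative gene of quiescent lymphocytes (34.5, 13.4 and 6.22), the transcriptional repressor Bach2 (23.7) and the transcription factor Foxp1 (23.2). Genes of the T cell receptor complex and its signalling had 7 among 9 (77.8%, 45.3 to 93.7%), in Cd3d and in Ptprc, which encodes the phosphatase CD45 (36.3, 10.7 and 8.58), among others. Splicing factor genes had 33 among 45 (73.3%, 59.0 to 84.0%) in 16 genes, with 13 in non-coding exons and 11 in 3'UTRs, such as Rbm25 (20.7), and 7 in CDS, such as Hnrnpm (16.8). The intervals of these 3 lists held the share of all exons.

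Lists of housekeeping genes lay at or below 67.0%, again with no allowance for class. Actin cytoskeleton genes had 10 among 15 (66.7%, 41.7 to 84.8%), the proteasome 5 among 8 (62.5%, 30.6 to 86.3%), MHC class I 4 among 6 and histones 2 among 3. Translation initiation and elongation factors had 21 among 45 (46.7%, 32.9 to 60.9%), and the respiratory chain with ATP synthase 14 among 36 (38.9%, 24.8 to 55.1%), of which the highest was in Uqcrfs1 (10.9), the Rieske protein of complex III. Mitochondrial ribosomal proteins, which are not TOP mRNAs, had 1 among 6, in Mrps16 (0.848). Genes that host snoRNAs had 116 among 215 (54.0%, 47.3 to 60.5%), and 19 among 34 (55.9%, 39.5 to 71.1%) without ribosomal protein and other TOP genes, an interval that held the 67.0% of all exons. Immediate early genes and mitochondrially encoded genes had 0 exonic regions in both lists.

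**Figure D5:**
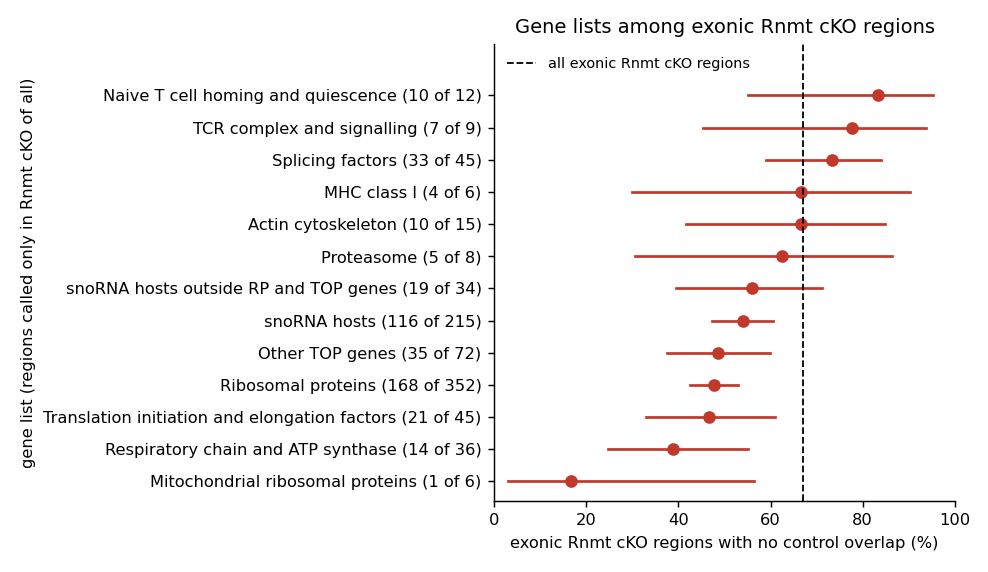
Share (%) of the exonic Rnmt cKO regions of each gene list that had no control overlap, with 95% Wilson intervals, for lists with at least 5 exonic Rnmt cKO regions. Brackets give members of all. No allowance was made for the annotation class of the regions. The dashed line marks all exonic Rnmt cKO regions, 67.0%: ribosomal proteins (168 of 352), other TOP genes (35 of 72), translation factors and the respiratory chain lie to its left with intervals that stop short of it, as do snoRNA hosts (116 of 215) and mitochondrial ribosomal proteins (1 of 6), whereas the interval of snoRNA hosts outside ribosomal protein and TOP genes (19 of 34) crosses it.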

How the data were processed

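From the reads, the authors took the 10 nt random barcode (UMI-tools) and cut off adapters (cutadapt). STAR 2.5.2b aligned them to mm10, and copies with the same barcode, secondary placements and poorly mapped reads (SAMtools) were discarded. PureCLIP then called regions of each LARP1 library against that genotype's input. The deposited region score matched its summed site scores for 2381 of 2381 Rnmt cKO regions (within 0.1 percent). The other deposited column lists these site scores. The authors' later selection of regions against input and IgG reads was not applied here, so regions it would remove are included. Only the LARP1 libraries of the main experiment entered, and the 6 preliminary ones did not.

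Here 14 Rnmt cKO and 10 control regions on chromosome Y were left out. Overlaps, classes, windows and intervals were computed in Python 3.11.15 on GENCODE M21 (GRCm38, which is mm10) and tested on simulated regions. Regions took 1 transcript of the gene among those that gave their class, principal isoforms first. Where only a variant gave that class, positions refer to the variant. Windows of 15 nt were centred on the first base, with upstream bases from RefSeq promoters (GRCm38), and 9 members lacked bases. Comparison windows were all those of the same class and transcript. Named regions were the 10 highest, the 5 highest of each class and of genes without exonic control region, up to 5 per gene list, the 5 genes with most members and the regions at the edge of the selection. Rpl4 tied for the fifth place. Tet3, Ogt, Ddx5, Ddx17, Rpl21, Fau, Larp1 and the ribosomal protein genes without a member fall outside this rule and were chosen after their values were seen. Members and lists were chosen with earlier results of these data known. With 1 library per genotype no test was made.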

Additional observations from a re-analysis of the deposited data

How the results depend on the processing

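The number of members, their overall shares by class, gene, start site and sequence, and their median score, 14 results in all, were each recomputed under the alternatives that bear on them. Shares of gene lists, ribosomal protein counts by class, positions, medians by class and the AAAAA and AATAAA shares were not. Of the 92 recomputed values, 64 stayed within the interval of the reported value, or within 1.5 times of the count. With at least 2 crosslink sites 349 members remained, 51.3% of exonic Rnmt cKO regions. Of these 16.9% were in 5'UTRs, 12.3% in non-coding exons, 24.6% in ribosomal protein genes, 54.2% in genes with an exonic control region and 15.5% within 50 nt of a TSS, 71.6% had T at the first base and 57.0% a run of 5 C or T, and the median score was 14.1. Above the median score of the list 374 members remained, 49.4% of exonic regions. Of these 38.2% were in CDS, 29.9% in 3'UTRs, 33.2% in ribosomal protein genes and 61.0% in genes with an exonic control region, and 36.6% were a single site, so that CDS and not the 3'UTR was the largest class. Transcripts tagged basic gave 36.1% in CDS, 44.0% in 3'UTRs and 6.04% in non-coding exons. Taking 3'UTRs before CDS and 5'UTRs gave 43.7% in 3'UTRs. Lists of equal length, with the 2367 highest control regions, gave 45.9% in genes with an exonic control region, and counting control regions in introns gave 56.5%. A distance of 10 nt to a TSS gave 5.69%, and a window of 31 nt gave 57.7% with a run of 5 C or T. The share of 3'UTR members with TTTTT, whose alternatives were chosen after seeing the data, was 63.4% with at least 2 sites, 22.3% with a single site and 50.9% above the median score. Counting a control region within 30 nt as shared (14 values) or on either strand (2 values), and leaving out pseudogenes (5 values), moved none of these values beyond its interval. The cause of these changes was not tested beyond the smaller or differently annotated sets that the alternatives define. Leaving out repeated scores changed nothing, because 0 members carried one.

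No paired analysis was possible because there was 1 library of either genotype, which also leaves no replicate to drop. Intervals cover counting error over regions only. The depth of the libraries is unknown, and a control region below the caller's threshold turns an Rnmt cKO region into a member. Low-scoring single-site regions are the least certain.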
